A study of Saccharomyces cerevisiae with 6 samples.

Results

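The tricarboxylic acid (TCA) cycle, the glyoxylate shunt, gluconeogenesis and the reactions that feed them were represented by 33 genes of Saccharomyces cerevisiae, chosen by gene symbol from the 5539 named genes on the arrays. All 33 were found, each on 2 spots, and the spots were averaged per gene and array. The set covers pyruvate dehydrogenase, the enzymes of the cycle except succinate dehydrogenase, the NADP-dependent isocitrate dehydrogenases, the glyoxylate enzymes, pyruvate carboxylase, malic enzyme, phosphoenolpyruvate carboxykinase, a pair of transport functions and the activator HAP4. The cycle oxidises acetyl-CoA in the mitochondria and supplies 2-oxoglutarate and oxaloacetate for amino acid synthesis. The glyoxylate shunt bypasses its decarboxylating steps, so that carbon from ethanol or acetate can be turned into malate and then sugar. Yeast keeps many of these genes low while glucose is plentiful, and when respiration fails the retrograde pathway (Rtg1, Rtg2 and Rtg3) maintains those that lead to 2-oxoglutarate.

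The arrays compared total RNA of a met4 mutant (Cy3), a deletion according to the series title, directly with that of the wild type (Cy5), after 1 hour of arsenite, As(III), at 0.2 mM in both strains. Met4 activates the genes of sulfate assimilation and sulfur amino acid synthesis. There were 6 arrays in 1 group, and the dyes were never swapped, so a gene's dye bias and the effect of the mutation cannot be told apart. The sources used here do not give the strain background, the medium, the carbon source or whether replicates were separate cultures, so p-values reflect only how these arrays differ among themselves, possibly for technical reasons. All cells were exposed to arsenite, and no unexposed cells were analysed here.

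Values are log ratios taken as log2, with each array centred on the median of its spots, so 0 stands for the typical spot of that array. Neither the log base nor the numerator is stated. Mutant over wild type is called likely from the order in the sample titles, and "higher" and "lower" mean in the mutant under that reading. If the ratio were instead wild type (Cy5) over mutant (Cy3), every "higher" and "lower" would be reversed. MET4 itself stood between -0.94 and -0.32 (mean -0.59 ± 0.25, SD, n = 6; limma, adjusted p = 0.0112), below 0 on 6 of 6 arrays after centring. As deposited it stood at 0.59 on array 3 and did not pass the threshold (adjusted p = 0.600). Between arrays, the correlation across all genes ran from 0.0817 to 0.759. The number of arrays limits the precision.

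Of the 33 genes, which leave out succinate dehydrogenase, 2 differed between mutant and wild type. KGD1, the E1 subunit of 2-oxoglutarate dehydrogenase, was higher at 0.48 ± 0.27 (SD, n = 6), and DAL7, a malate synthase of the allantoin pathway, was lower at -0.44 ± 0.23. The other 31 members did not pass the threshold (limma across all genes, Benjamini-Hochberg adjusted p under 0.05). The share of members called was 6.06%, against 15.1% of all 5539 genes. Of all genes 9.41% were called higher and 5.69% lower, while the members gave 1 call in each direction. All 33 means lay between -0.47 (MAE1) and 0.48 (KGD1), so none reached 0.5 in size, as was also true of 84.2% of all genes. The moderated 95% confidence intervals of limma reached at most from -0.86 to 0.91, so for each of the 33 genes a 2-fold mean difference lay outside its interval, as it did for 89.6% of all genes. These bounds are on the log2 scale and hold for the centred values. If the values were natural logarithms, each would be 1.44 times as large on the log2 scale, and some intervals would then reach 2-fold. The members' median was 0.028, with 17 means above 0 and 16 below, against a median of 0.0053 over all genes.

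**Figure D1:**
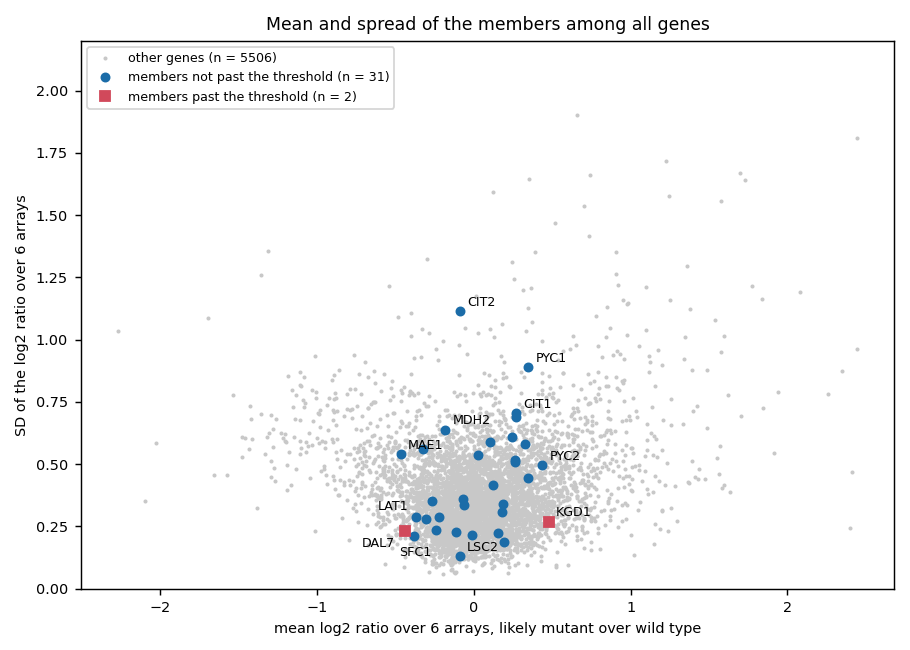
Mean log2 ratio (x axis) and SD between arrays (y axis) of each gene over 6 arrays, with the 5506 other genes in grey, the 31 members not past the threshold as blue circles and the 2 members past it as red squares. The members sit between -0.47 and 0.48 on the x axis, while their SD runs from 0.13 (LSC2) to 1.11 (CIT2).

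The small means did not come from uniformly quiet genes. The SD between arrays ran from 0.13 for LSC2 to 1.11 for CIT2, and its median over members, 0.36, was close to that over all genes, 0.35. CIT2, PYC1, CIT1 and IDP1 had SDs at the 94.3rd percentile of all genes or higher, and each of them lay below 0 on some arrays and above 0 on others. KGD1 lay above 0 on every array, as did 9.89% of all genes. DAL7, MAE1, LAT1 and SFC1 lay below 0 on every array, as did 8.18% of all genes. Together these 5 are 15.2% of the members, and 18.1% of all genes kept 1 sign throughout. These signs are those of spot averages, and of the 5 only LAT1 had both spots on the same side on every array. The spots read 0.60 and -0.31 for KGD1 and -0.16 and 0.13 for DAL7, both on array 4. For MAE1 they read 0.075 and -0.26 on array 6, and for SFC1 -0.58 and 0.20 on array 3.

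**Figure D2:**
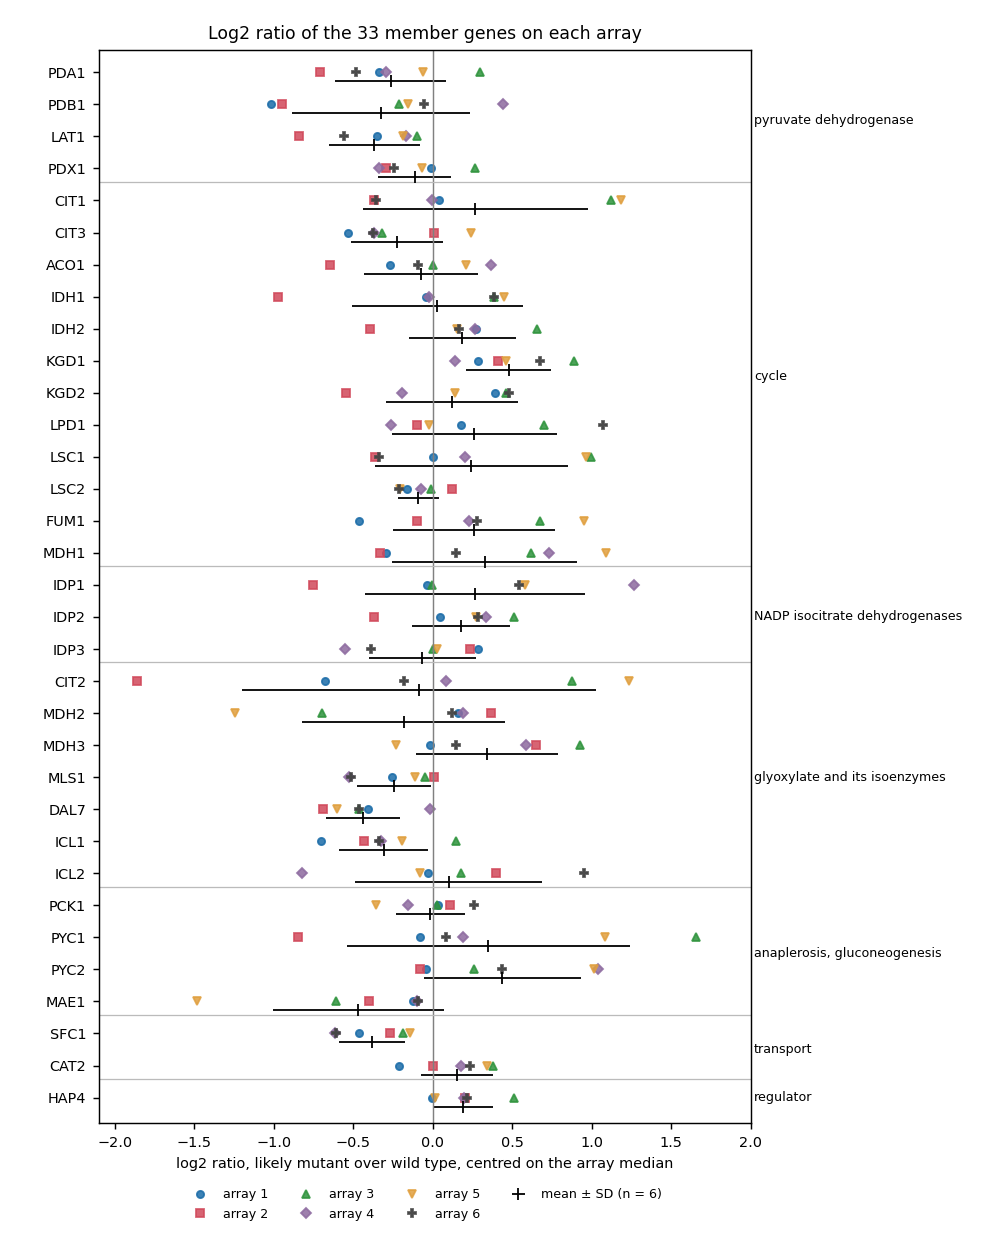
Centred log2 ratio (x axis) of each of the 33 genes on each of the 6 arrays (coloured symbols), grouped by role, with the mean ± SD (n = 6) as a black bar under the symbols. KGD1 lies to the right of 0 and DAL7, MAE1, LAT1 and SFC1 to the left on all 6 arrays, and for the other 28 genes the arrays fall on both sides of 0.

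Pyruvate dehydrogenase turns pyruvate into mitochondrial acetyl-CoA. Apart from the shared E3 subunit gene LPD1, 4 of 4 of its subunit genes had means below 0. None of these 4 passed the threshold (limma, 1 at an unadjusted p under 0.05). Over all genes, 2729 of 5539 means were below 0 and 29.5% had an unadjusted limma p under 0.05. LAT1, the E2 acetyltransferase subunit, ran from -0.84 through a median of -0.27 to -0.098 and was below 0 on 6 of 6 arrays (mean -0.37 ± 0.29; limma, adjusted p = 0.0897). PDA1, the E1 alpha subunit, ran from -0.71 through -0.32 to 0.30, with array 3 alone above 0. Its duplicate spots on array 5 read -0.33 and 0.21. PDB1, the E1 beta subunit, ran from -1.02 through -0.19 to 0.44, with arrays 1 and 2 near -1 and array 4 alone above 0. PDX1, which anchors E3 in the complex, had the smallest difference of the 4 at -0.11 ± 0.23, and its sign turned under 2 of the 17 alternative settings, where the other 3 stayed below 0. LPD1, the lipoamide dehydrogenase that serves as E3 here and in 2-oxoglutarate dehydrogenase, is counted with the cycle genes below. It ran from -0.26 to 1.07 with a median of 0.076 and a mean of 0.26 ± 0.52. LPD1 was above 0 on 3 of 6 arrays, and on array 6, its highest, the duplicate spots read 0.67 and 1.47.

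Within the cycle, 1 of 12 genes rose, none fell and the other 11 missed the threshold, and 9 of the 12 means were above 0. Of all 5539 genes, 9.41% were called higher and 2810 means were above 0. The median of the 12 means was 0.21. On single arrays the median of these genes was lowest on array 2, at -0.35, and highest on array 3, at 0.64. At the entry, CIT1, the mitochondrial citrate synthase, ran from -0.37 through a median of 0.016 to 1.18. Only arrays 3 and 5 stood clearly above 0, at 1.12 and 1.18, and the other 4 lay at 0.038 or lower. CIT3, a mitochondrial citrate and methylcitrate synthase, had a mean of -0.22 ± 0.29, and ACO1, aconitase, one of -0.071 ± 0.36. IDH1 and IDH2 encode the subunits of NAD-dependent isocitrate dehydrogenase. IDH2 was above 0 on 5 of 6 arrays (0.19 ± 0.34), and IDH1 stood at -0.97 on array 2 against -0.045 to 0.45 on the others (0.028 ± 0.54). Neither passed.

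KGD1 ran from 0.14 on array 4 through a median of 0.44 to 0.89 on array 3 and was above 0 on 6 of 6 arrays (adjusted p = 0.0326 by limma). An exact sign-flip permutation over the 64 sign patterns, two-sided, gave p = 0.0312, the lowest value 6 arrays can give. Every gene with 1 sign on all 6 arrays gets this p, so it only restates that sign. MAE1, LAT1 and SFC1, which were not called, have it too. The mean is a 1.39-fold ratio. Its duplicate spots differed on arrays 4 and 5. On array 4 they read 0.60 and -0.31, and on array 5 they read 0.11 and 0.82. With the last spot alone the call was lost (limma, adjusted p = 0.0933), as it was in the values as deposited, with centring by print-order run, with the most alike arrays averaged, and without array 1, 3, 5 or 6 (adjusted p from 0.0541 to 0.401 over these 8). KGD2, the E2 subunit of the same complex, did not pass at 0.12 ± 0.41, with arrays 2 and 4 below 0 and the others above.

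LSC1, the alpha subunit of succinyl-CoA ligase, stood at 0.99 and 0.96 on arrays 3 and 5 and between -0.36 and 0.20 on the other 4. LSC2, the beta subunit, varied least of all members and kept between -0.22 and 0.12. Its duplicate spots differed by a median of 0.177, more than its SD of 0.13, and on array 5 they read -0.54 and 0.13. FUM1, fumarase, had a mean of 0.26 ± 0.51, and its duplicate spots lay 1.32 apart on array 2, the widest gap among the members. MDH1, the mitochondrial malate dehydrogenase, ran from -0.33 through 0.38 to 1.09 (0.33 ± 0.58; limma, adjusted p = 0.276), below 0 on arrays 1 and 2 and above 0 on the other 4.

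Succinate dehydrogenase, the step between succinyl-CoA ligase and fumarase and also complex II of the respiratory chain, is not a member. Of its 4 subunit genes, 2 rose and none fell. Over all genes, 9.41% were called higher and 5.69% lower. SDH1, the flavoprotein subunit, stood at 0.87 ± 0.64 (limma, adjusted p = 0.0129) and SDH2, the iron-sulfur subunit, at 0.85 ± 0.64 (adjusted p = 0.0143). SDH3 and SDH4, the membrane anchors, did not pass, at 0.46 ± 0.60 and -0.081 ± 0.31. The SDH1 call was lost with the most alike arrays averaged and SDH2 lost its call there and without array 3, 5 or 6.

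**Figure D3:**
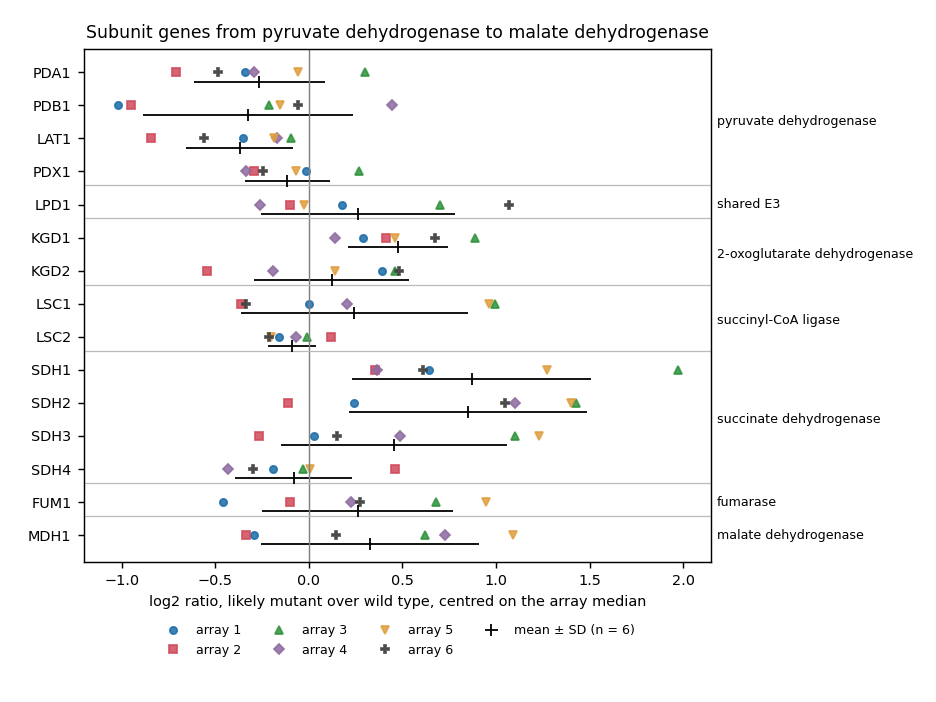
Centred log2 ratio (x axis) on each of 6 arrays (coloured symbols) for the subunit genes from pyruvate dehydrogenase to malate dehydrogenase, in the order of the reactions, with the mean ± SD (n = 6) as black bars. The means of the 4 pyruvate dehydrogenase genes other than the shared E3 lie below 0, at -0.37 to -0.11. That of the shared E3, LPD1, is 0.26. SDH1 and SDH2 lie highest, at 0.87 and 0.85.

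The 3 NADP-dependent isocitrate dehydrogenases, which make NADPH in different compartments, did not pass (limma). At an unadjusted p under 0.05 there were 0, against 29.5% of all genes. IDP1, the mitochondrial enzyme, ran from -0.75 on array 2 through a median of 0.27 to 1.27 on array 4. IDP2, the cytosolic enzyme, was above 0 on 5 of 6 arrays with a mean of 0.18 ± 0.31, and array 2 was the exception at -0.37. IDP3, the peroxisomal enzyme, had a mean of -0.065 ± 0.34, with arrays 4 and 6 below 0 and the other 4 between 0.0033 and 0.29.

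The glyoxylate group held the glyoxylate enzymes, the citrate and malate isoenzymes outside the mitochondria, DAL7 and the mitochondrial ICL2. In it 1 of 7 genes fell, none rose and 6 did not pass, and 5 of the 7 means were below 0. Of all genes, 5.69% were called lower and 2729 of 5539 means were below 0. DAL7 ran from -0.69 on array 2 through a median of -0.47 to -0.016 on array 4 and was below 0 on 6 of 6 arrays (limma, adjusted p = 0.0384). Its exact sign-flip permutation p of 0.0312 only restates that 1 sign, as for KGD1. The mean is a 1.36-fold ratio. On array 4 the duplicate spots of DAL7 read -0.16 and 0.13. The call was lost in 8 of the 17 alternatives (adjusted p from 0.0534 to 0.861), which were the values as deposited, the last spot alone, the most alike arrays averaged, and leaving out array 1, 2, 3, 5 or 6. MLS1, the malate synthase of the glyoxylate cycle and a close paralog of DAL7, ran from -0.53 through -0.19 to 0.0075 and did not pass (-0.24 ± 0.23; limma, adjusted p = 0.237). Signal shared between such paralogs was not tested. ICL1, isocitrate lyase, the first enzyme of the shunt, ran from -0.70 through -0.33 to 0.14, with array 3 alone above 0 (-0.31 ± 0.28; adjusted p = 0.150). Its duplicate spots on array 5 read -0.66 and 0.27. ICL2, a mitochondrial 2-methylisocitrate lyase, ranged from -0.82 on array 4 to 0.95 on array 6, where its duplicate spots read 1.45 and 0.45.

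CIT2, the peroxisomal citrate synthase and a standard reporter of the retrograde pathway, had the widest spread of the members. It stood at -1.86 on array 2, -0.68 on array 1 and -0.18 on array 6, and at 0.085, 0.88 and 1.23 on arrays 4, 3 and 5. The mean of -0.087 ± 1.11 had a moderated 95% interval from -0.76 to 0.59. Its duplicate spots differed by a median of 0.092, so the spread lay between arrays. MDH2, the cytosolic malate dehydrogenase used in gluconeogenesis, went the other way between arrays. It was lowest on array 5, at -1.24, and on array 3, at -0.69, and between 0.12 and 0.36 on the other 4. MDH3, the peroxisomal malate dehydrogenase, had a mean of 0.34 ± 0.45 (limma, adjusted p = 0.181), above 0 on 4 of 6 arrays.

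The 4 anaplerotic and gluconeogenic genes included none that passed (limma, 2 at an unadjusted p under 0.05, against 29.5% of all genes). PYC2, a pyruvate carboxylase, which makes oxaloacetate from pyruvate in the cytosol, ran from -0.081 through 0.35 to 1.04, with arrays 4 and 5 above 1 and arrays 1 and 2 just below 0 (0.44 ± 0.50; limma, adjusted p = 0.109). PYC1, the other isoenzyme, ran from -0.84 on array 2 through 0.13 to 1.66 on array 3, the highest single value of any member (0.35 ± 0.89; adjusted p = 0.404). MAE1, the mitochondrial malic enzyme, which turns malate into pyruvate, had the lowest mean of the members at -0.47 ± 0.54 (adjusted p = 0.103). It was below 0 on 6 of 6 arrays, with array 5 at -1.48 and the others between -0.61 and -0.091. MAE1 passed under 1 of 17 alternatives, centring by print-order run (adjusted p = 0.0473). PCK1, phosphoenolpyruvate carboxykinase, the enzyme that commits oxaloacetate to gluconeogenesis, kept between -0.36 and 0.26 (mean -0.015 ± 0.22), with a moderated 95% interval from -0.29 to 0.26.

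SFC1, the carrier that exchanges cytosolic succinate for mitochondrial fumarate and so links the glyoxylate shunt to the cycle, ran from -0.62 through -0.37 to -0.14. It was below 0 on 6 of 6 arrays with a small spread (-0.38 ± 0.21) and lay just outside the threshold (limma, adjusted p = 0.0615). It passed under 3 of 17 alternatives, quantile normalization, the first spot alone and array weights (limma, adjusted p = 0.0474, 0.0440 and 0.0370). Among those where it missed were the last spot alone (0.145), print-order centring (0.124) and the values as deposited (0.931). On array 3 its duplicate spots read -0.58 and 0.20, so the sign there rests on their average. CAT2, the carnitine acetyltransferase that moves acetyl units between peroxisome and mitochondria, stood at 0.15 ± 0.22. HAP4, the activating subunit of the Hap2/3/4/5 complex that turns on respiratory genes, ran from -0.0054 through 0.20 to 0.51 and did not pass (0.19 ± 0.19; adjusted p = 0.340).

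Arrays 2 and 3 stood at the ends of the members' range. The median over the 33 genes was -0.33 on array 2 and 0.27 on array 3, and between -0.045 and 0.080 on the other 4. On array 2 23 of 33 members were below 0, and on array 3 22 were above. Array 2 held the lowest value of 15 members and array 3 the highest value of 12, whereas array 3 held the lowest value of 0 members. Over all genes, array 2 held 27.7% of the lowest values, and array 3 held 17.7% of the highest and 16.2% of the lowest. The median over all genes was 0.014 on array 1, -0.027 on array 2 and 0.014 on array 3. Array 3 also had the widest spread over all genes (SD 0.67) and the highest spot median before centring (0.92). Array 1 resembled array 2 in its count, with 24 members below 0, although its median was only -0.045.

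The yeast genome encodes several of these reactions more than once, so 12 pairs of isoenzyme genes were compared by the difference of their log2 ratios within each array, a quantity that does not depend on how an array is centred as a whole. No pair passed (exact two-sided sign-flip permutation, Benjamini-Hochberg over 12 pairs, smallest adjusted p = 0.589), and 0 pairs had an unadjusted p under 0.05. With 6 arrays the smallest possible p is 0.0312, and 0 of 12 pairs reached it, since no pair kept its order on every array. The widest mean difference was that of MDH2 minus MDH3, -0.53 ± 0.67, with 5 of 6 arrays below 0 (exact p = 0.0938). MDH1 minus MDH2 stood at 0.51 ± 1.15 and ran from -0.70 on array 2 to 2.33 on array 5. CIT1 minus CIT3 stood at 0.49 ± 0.65, above 0 on 5 of 6 arrays (exact p = 0.125). ICL1 minus ICL2 stood at -0.41 ± 0.64, below 0 on 5 of 6 arrays (exact p = 0.156). CIT1 minus CIT2 was 1.49 on array 2 and 0.72 on array 1, and between -0.18 and 0.24 on the other 4. PYC1 minus PYC2 had a mean of -0.089 ± 0.82 and MDH1 minus MDH3 one of -0.017 ± 0.76. The SDs, from 0.44 to 1.15, exceeded the mean difference in all 12 pairs, so these arrays do not show that the isoenzymes responded alike.

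**Figure D4:**
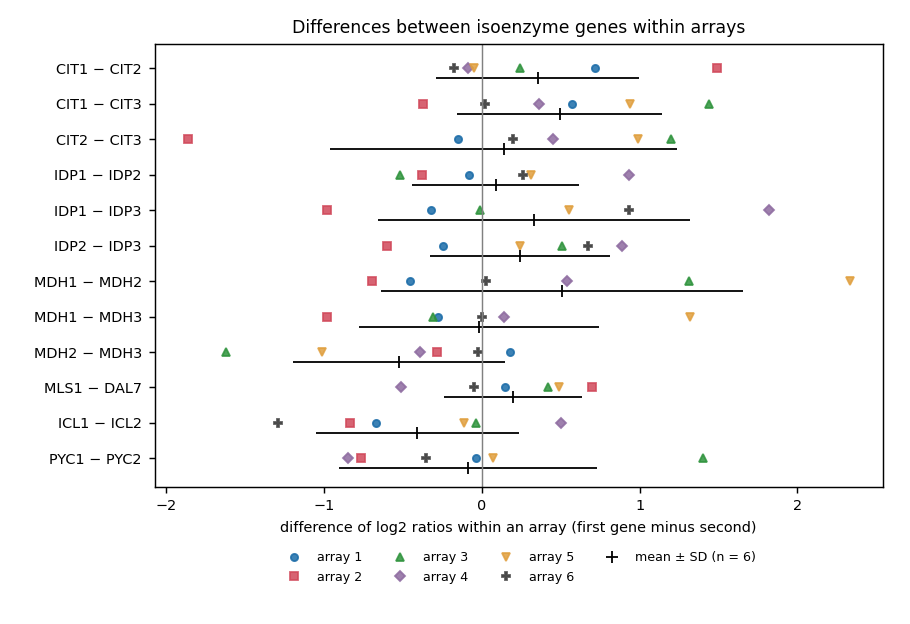
Difference of the log2 ratios of 2 isoenzyme genes within each array (x axis, first gene minus second) for 12 pairs, with arrays as coloured symbols and the mean ± SD (n = 6) as black bars. In each of the 12 pairs the arrays fall on both sides of 0.

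Among genes around the pathway, taken from lists of general knowledge, some lay further from 0 than any member. The counts of each list below stand beside 9.41% of all genes called higher and 5.69% called lower. Whether a list departed from these shares was not tested. Of 15 mitochondrial and carnitine carrier genes, 3 rose and none fell, while 12 missed the threshold. PIC2, a mitochondrial phosphate and copper carrier, was above 0 on 6 of 6 arrays (0.88 to 2.11, mean 1.37 ± 0.43; limma, adjusted p = 0.000265). CTP1, the citrate carrier, stood at 0.76 ± 0.59 and YAT1, an outer mitochondrial carnitine acetyltransferase, at 0.57 ± 0.49. Neither CTP1 nor YAT1 was called in the values as deposited (adjusted p = 0.0839 and 0.260). Both calls were also lost without array 3, 4, 5 or 6, with the most alike arrays averaged, and with centring by print-order run, where the means were 0.49 and 0.35. The YAT1 call was lost as well with arrays scaled to equal spread, the last spot alone and array weights. YAT2, a cytosolic carnitine acetyltransferase, stood at -0.52 ± 0.47 (adjusted p = 0.0554).

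Among 8 genes for control and lipoylation of the dehydrogenase complexes, 1 rose and 7 did not pass. It was GCV3, the lipoylated H protein of glycine cleavage, at 1.05 ± 0.97 (limma, adjusted p = 0.0240), a call lost without array 3, 5 or 6, with print-order centring and with the most alike arrays averaged. The pyruvate dehydrogenase kinase genes PKP2 and PKP1, whose products phosphorylate the E1 alpha subunit, stood at 0.60 ± 0.61 (adjusted p = 0.0569) and 0.41 ± 0.32 (adjusted p = 0.0709).

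None of 11 regulators of carbon source genes passed (limma, 1 at an unadjusted p under 0.05, against 29.5% of all genes). The nearest was MIG1, the glucose repressor, at -0.42 ± 0.28 (adjusted p = 0.0566). MIG1 passed under 3 of 17 alternatives, the first spot alone, array weights and without array 6 (limma, adjusted p = 0.0482, 0.0180 and 0.0486). The Hap4 partners HAP2, HAP3 and HAP5 stood at 0.010, 0.076 and -0.18, and the gluconeogenic activator CAT8 at 0.17 ± 0.41. Of 10 retrograde pathway genes, which include CIT2 and CIT3, 1 rose, 1 fell and 8 did not pass. RTG1, a subunit of the retrograde activator, ran from 0.32 to 1.32 (0.85 ± 0.34; limma, adjusted p = 0.00266), and DLD3, a cytosolic D-2-hydroxyglutarate transhydrogenase, from -2.44 to -0.61 (-1.54 ± 0.78; adjusted p = 0.00143). RTG2 and RTG3 stood at 0.25 ± 0.48 and 0.18 ± 0.31.

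Of 13 other gluconeogenic and glucose-repressed genes measured, 2 rose, 2 fell and 9 did not pass. ALD4, the mitochondrial acetaldehyde dehydrogenase, stood at 1.54 ± 1.08 (limma, adjusted p = 0.00571) and GUT2, the mitochondrial glycerol-3-phosphate dehydrogenase, at 1.44 ± 0.48 (adjusted p = 0.000265). The ALD4 call was lost with the most alike arrays averaged (adjusted p = 0.0547). ADH2, the alcohol dehydrogenase used on ethanol, stood at -2.03 ± 0.59 and SUC2, invertase, at -0.52 ± 0.16. SUC2 was not called in the values as deposited (adjusted p = 0.719), without array 5 (0.0532) or with the most alike arrays averaged (0.0682), and the ADH2 signal may be shared with its paralog ADH1, which was not tested. FBP1, fructose-1,6-bisphosphatase, and the lactate permease JEN1 were not past the threshold, at 0.077 ± 0.64 and -0.23 ± 0.18.

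Of 8 genes of the GID complex, the ubiquitin ligase that marks gluconeogenic enzymes such as Fbp1, Mdh2, Icl1 and Pck1 for breakdown, 3 rose, none fell and the other 5 missed the threshold. GID7 stood at 0.80 ± 0.54, GID8 at 0.79 ± 0.29 and VID24, its substrate receptor, at 0.64 ± 0.54 (limma, adjusted p = 0.0116, 0.00295 and 0.0338). GID8 ran from 0.25 on array 2 to 1.02 on array 1. As deposited, without centring, all 3 missed the threshold (adjusted p = 0.0606, 0.0675 and 0.176). With the most alike arrays averaged GID8 kept its call and GID7 lost it, and the VID24 call was lost there, with centring by print-order run and without array 1, 3, 4, 5 or 6. Of 5 genes of glutamate and glutamine metabolism, 1 rose, none fell and 4 did not pass. It was GDH2, the NAD-dependent glutamate dehydrogenase that breaks down glutamate and releases 2-oxoglutarate (0.62 ± 0.46; limma, adjusted p = 0.0256). The GDH2 call was lost in the values as deposited, with the most alike arrays averaged and without array 1, 3, 5 or 6.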

How the data were processed

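Two-colour arrays of the mutant (Cy3) against the wild type (Cy5) were analysed from the table the authors deposited, with 1 column of log ratios, taken as log2, for each of 6 arrays. The sources used here do not state the upstream steps, the log base or the numerator. Deposited values ran from -3.57 to 5.32 and array medians from -0.95 to 0.92. The 134 exact zeros, none on a member's spot (0 members), were set to missing, each array was centred on its median, and the spots of each gene were averaged. Spots were named through the platform annotation (11138 of 13056 spots), and all 33 members matched the R64 gene table. No sequence was used.

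An intercept was fitted to each gene with limma (version 3.58.1, R version 4.3.3) and tested against 0 after eBayes, with Benjamini-Hochberg adjustment over 5539 genes and a threshold of 0.05. The calculation was tested on simulated data. No dye term could be fitted (0 swapped arrays). Members, gene lists, isoenzyme pairs and alternatives were chosen with earlier results of these data known. Every member is named. From each list up to 4 genes past the threshold were named by size, or the 1 nearest to it, and other names were chosen after their values were seen (SDH3, SDH4, YAT2, PKP1, PKP2, HAP2, HAP3, HAP5, CAT8, RTG2, RTG3, FBP1 and JEN1). The 17 alternatives changed centring, scaling, zeros, spots, missing values, the empirical Bayes step, array weights or the arrays used. "Most alike arrays averaged" means arrays 3 and 5, and 4 and 6, each counted once. Arrays 3 and 5 had the highest correlation (0.759), and 4 and 6 the highest among the arrays left (0.609). Arrays 1 and 3 were slightly more alike (0.622) than 4 and 6. Print-order centring used 48 runs of consecutive spots. Figures were drawn with matplotlib 3.10.9.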

Additional observations from a re-analysis of the deposited data

Results flagged for a closer look

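Among the 51 genes examined for an array far from the other 5, 2 were picked out, both members, by a limit that chance passes in about 1 of 20 groups. IDH1, a subunit of NAD-dependent isocitrate dehydrogenase, stood at -0.97 on array 2, where the nearest other array was at -0.045 and the highest at 0.45. MAE1, the malic enzyme, stood at -1.48 on array 5, where the nearest other array was at -0.61 and the highest at -0.091. Without array 2 the mean of IDH1 was 0.23 (limma, adjusted p = 0.271), and without array 5 that of MAE1 was -0.26 (adjusted p = 0.299).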

How the results depend on the processing

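Of all genes, 836 passed (37.7% of them lower), against 246 in the values as deposited (24.0% lower), where the median of all gene means moved from 0.0053 to 0.12 and 23 of 33 member means, not 17, were above 0. With the most alike arrays averaged 366 passed, and leaving out 1 array gave 456 to 965. The 1 member called higher became 0 in the values as deposited, with print-order runs, with the last spot and with the most alike arrays averaged, and ranged from 0 to 1 when arrays were left out. The 1 member called lower became 0 as deposited, with the last spot and with arrays averaged, 2 with print-order runs (DAL7 and MAE1), and 2 with quantile normalization, the first spot or array weights (DAL7 and SFC1), and ranged from 0 to 1 when arrays were left out. MET4 stood at -0.47 as deposited (adjusted p = 0.600). Isoenzyme pairs with 1 order on every array, 0 of 12 in the main values, numbered 2 with print-order runs (MDH2 with MDH3, MLS1 with DAL7), 1 with arrays averaged (ICL1 with ICL2), and 0 to 1 when arrays were left out. Averaging arrays or leaving 1 out leaves fewer values per pair, so a pair then keeps 1 order more easily by chance. No member changed sign under an alternative while called in either. No paired analysis was possible because the arrays form 1 group. Scanner intensities were not used here, so members near background could not be marked.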

Other observations

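Pyruvate dehydrogenase and 2-oxoglutarate dehydrogenase are related complexes that share the E3 subunit LPD1. KGD1 minus PDA1, the difference between the E1 genes, ran from 0.43 through a median of 0.61 to 1.16 and was above 0 on 6 of 6 arrays (mean 0.74 ± 0.32). KGD2 minus LAT1, between the E2 genes, ran from -0.023 through 0.44 to 1.04 and was above 0 on 5 of 6 arrays (0.49 ± 0.37). CIT2 and DLD3 are both known targets of the retrograde pathway. CIT2 lay above DLD3 on 6 of 6 arrays, by 0.58 on array 2, by a median of 1.53 and by up to 1.85 on array 5 (mean difference 1.45 ± 0.45), although CIT2 itself fell on both sides of 0. These 3 pairs were chosen after their values were seen. Their exact two-sided sign-flip permutation p-values were 0.0312, 0.0625 and 0.0312, where 0.0312 is the smallest that 6 arrays allow, and none passed when adjusted over all 15 pairs (0.234, 0.312 and 0.234).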
